A study of Salmo salar with 12 samples.

Results

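The regions described here are liver ATAC-seq peaks that were almost empty in at least 1 library although the other libraries held clear signal. A peak was taken as missing from a library with 3 or fewer counts. The peaks were chosen by these counts: a peak entered the set where the median CPM (counts divided by the library's total in peaks, times 1000000) of the libraries with more than 3 counts would have given at least 20 counts in every missing library. This rule found 622 of the 94780 consensus peaks, or 0.656%. A further 2385 peaks had a library with 3 or fewer counts but did not reach the expected 20 counts, and 91773 peaks had more than 3 counts in every library. The rule used the counts of all 12 libraries, so the levels and numbers of missing libraries are given as a description with no test. It used neither the time points nor the peak numbers.

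In ATAC-seq the transposase Tn5 inserts sequencing adapters where DNA is not tightly wrapped in nucleosomes, and the number of reads in a peak follows how often a region was accessible. Accessible regions of liver include promoters and enhancers, where bound transcription factors keep nucleosomes away. In bulk liver, fewer cells with an open region and less opening per cell cannot be told apart, and neither can closed chromatin and DNA that differs from the reference assembly.

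The 12 libraries came from snap-frozen liver of female Atlantic salmon brood stock kept in tanks as 1 management group, with 3 biological replicates at each time point. T1 was sampled just before a long-light photoperiod that stimulates sexual maturation, and T2, T3 and T4 at successive times under it. All fish were thus of 1 sex and stock, and the labels give no genotype, so relatedness and sequence differences between fish are not known here. Light, time and season advanced together from T1 to T4 and cannot be told apart. The tables identify peaks by number only. No position, gene or sequence could be attached to a peak, the labelled tissue could not be checked against marker genes, and whether neighbouring numbers are neighbours in the genome is not stated in the sources used here.

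Library totals in peaks ranged from 4199681 counts (T4 replicate 2) to 31312069 (T1 replicate 3). The depth set which peaks could be seen as missing, since 20 counts correspond to 0.639 CPM in T1 replicate 3 and to 4.76 CPM in T4 replicate 2. T4 replicate 2 also stood apart in its weakest peaks: the CPM at the 1st percentile of all peaks was 0.952 there and 0.192 to 0.678 in the 11 other libraries. Intervals and lower bounds given here cover counting error only. They leave out the spread between fish and libraries and the error of the expected count.

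The 622 peaks had 852 missing values. Of these, 183 were 0 counts (21.5%), 125 were 1 count, 211 were 2 counts and 333 were 3 counts (39.1%). Most peaks of the set lacked a single library: 513 of 622 (82.5%) were missing from exactly 1. The number fell steeply after that, with 54 peaks missing from 2 libraries, 27 from 3, 14 from 4, 4 from 5 and 5 from 6. The extremes were 2 peaks missing from 8 libraries, 2 from 9 and 1 from 10. The rule leaves out any peak with a further low library that did not reach the expected count. Over all peaks, 1251 values that reached it were at 3 or fewer counts, against the 852 in the set. The rest belonged to such left-out peaks, which were low in several libraries. The high share missing from 1 library and the steep fall are thus partly built in.

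**Figure D1:**
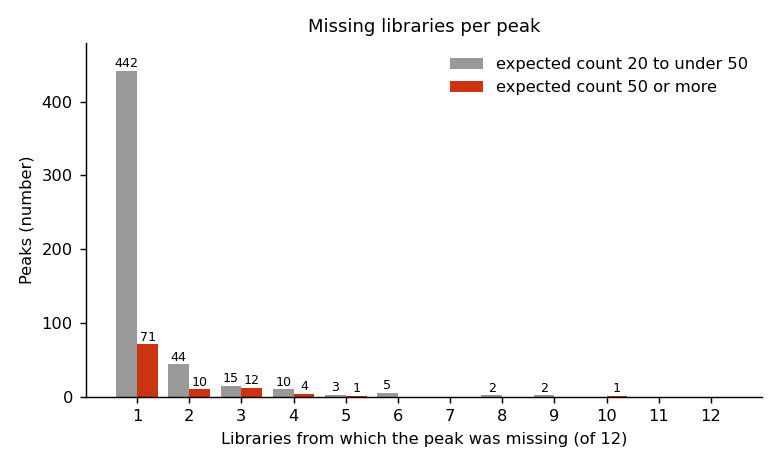
Number of peaks (vertical axis) by the number of libraries, of 12, from which the peak was missing (horizontal axis). Grey bars are peaks whose lowest expected count in a missing library was 20 to under 50, red bars are those at 50 or more; 442 grey and 71 red peaks were missing from 1 library, and the single peak missing from 10 libraries was red.

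Most of these peaks were weak. Their median CPM in the libraries above 3 counts had a median of 1.47 and ranged from 0.642 to 88.2, whereas peaks above 3 counts everywhere had a median of 5.14. It was under 2 CPM in 419 of the 622 peaks (67.4%) and in 18% of the peaks above 3 counts everywhere. The lowest expected count was under 30 in 347 peaks (55.8%), at 50 or more in 99 (15.9%), at 100 or more in 24, at 200 or more in 8 and at 500 or more in 4. The stronger peaks were emptier where they were missing. Among the 99 peaks with an expected count of at least 50, 39.2% of 158 missing values were 0 counts and 22.2% were 3 counts. Among the other 523 peaks, 17.4% of 694 were 0 counts and 42.9% were 3 counts.

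The threshold passed through a continuous range. Just inside it, peak100625 had 2 counts in T4 replicate 2 where 20.00 were expected, peak77030 had 2 counts in T3 replicate 1 where 20.02 were expected, and peak53369 had 3 counts in T3 replicate 1 where 20.03 were expected. Just outside it, peak83317 had 1 count in T2 replicate 3, peak95437 had 3 counts in T2 replicate 3 and peak30229 had 1 count in T1 replicate 2, each where 19.99 were expected. All 6 held 1 to 3 counts in these libraries.

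Among the peaks missing from exactly 1 library, peak19655 had the highest level, with a median of 88.2 CPM. Its counts were 917, 1978 and 2830 in T1 replicates 1 to 3, 2429, 694 and 1907 at T2, 2160, 1171 and 459 at T3, and 1, 176 and 1164 at T4. T4 replicate 1 held 1 count where 1020 were expected, 1020-fold lower (95% exact Poisson interval 183 to 40300). All 11 other libraries lay between 40.5 and 107 CPM. The peaks on either side were present in that library, with 11 counts in peak19654 and 168 in peak19656.

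The next strongest peaks were missing from 1 library by the rule but nearly empty in more. At peak63110 the counts were 842, 2302 and 2995 at T1, 2097, 16 and 2527 at T2, 19, 1327 and 249 at T3, and 908, 148 and 0 at T4. T4 replicate 3 was at least 656-fold lower than expected. The 16 counts of T2 replicate 2 and the 19 of T3 replicate 1 stood against 1350 and 1860 expected, so that 3 libraries were low and 9 lay between 33.3 and 117 CPM. At peak64719 the counts were 1481, 1255 and 2 at T1, 1383, 920 and 952 at T2, 7, 863 and 321 at T3, and 394, 93 and 1277 at T4. T1 replicate 3 was 797-fold lower than expected (95% exact Poisson interval 221 to 6580), and T3 replicate 1 held 7 counts where 1210 were expected.

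Others were missing from 1 library with no further empty one. For peak96085 the counts were 0, 1073 and 1365 at T1, 246, 228 and 471 at T2, 499, 485 and 149 at T3, and 113, 125 and 533 at T4. T1 replicate 1 was at least 83.5-fold lower than expected, while the other replicates of the same time point had the 2 highest levels of all libraries, 50.3 and 43.6 CPM. For peak78221, singled out after its values were seen, T3 replicate 3 had 0 counts where 141 were expected and the 11 other libraries ranged from 11.6 to 37.9 CPM.

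**Figure D2:**
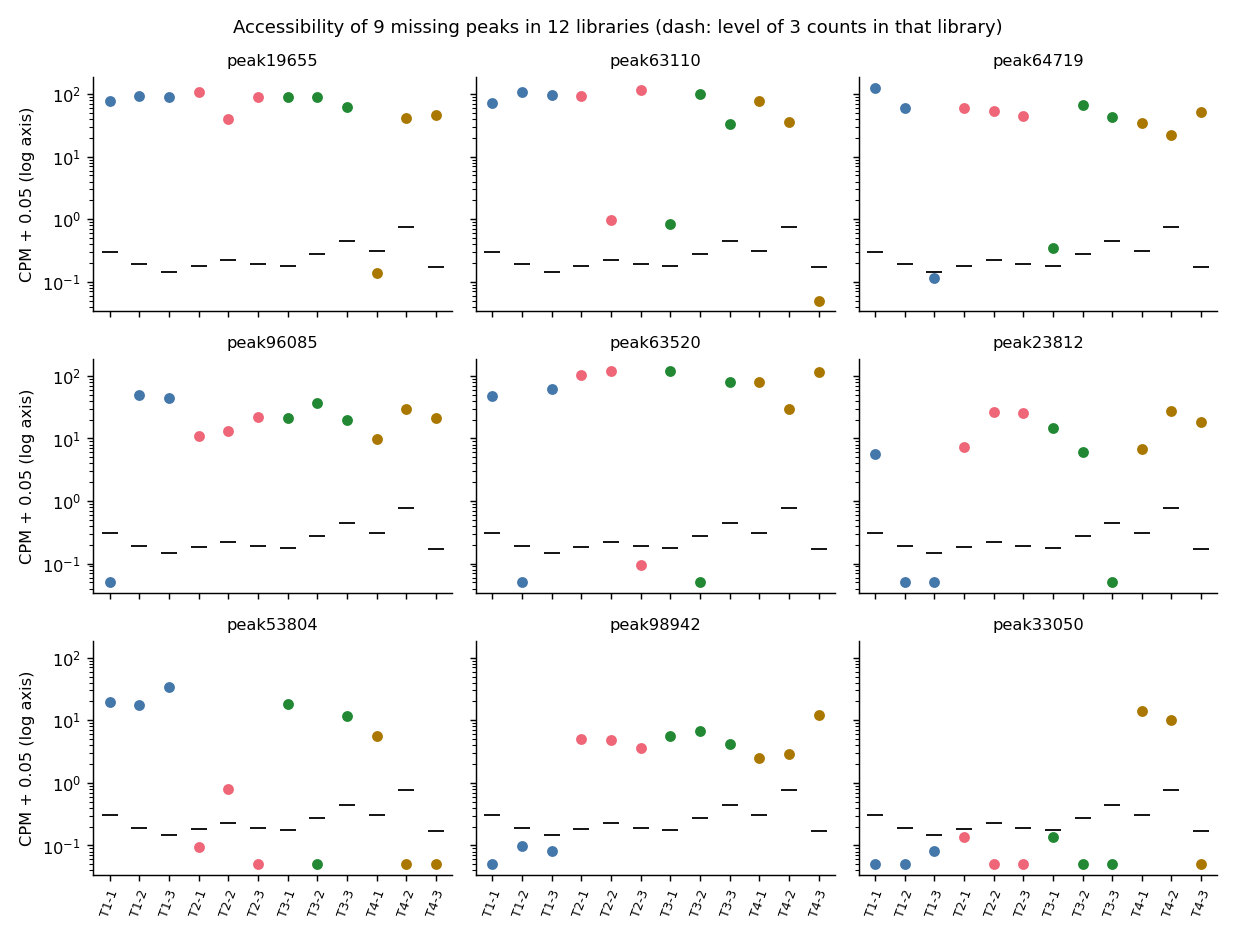
CPM + 0.05 on a log axis (vertical) of 9 peaks in the 12 libraries (horizontal, time point and replicate; colours are time points). The short black dash in each column is the level of 3 counts in that library, and points below it are missing values; peak19655 shows 1 such point, peak63520 and peak23812 show 3 each and peak33050 shows 10.

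Among the peaks missing from 2 libraries, the strongest was peak19586 at a median of 13.3 CPM. Its counts were 148, 431 and 857 at T1, 710, 209 and 2 at T2, 246, 290 and 74 at T3, and 0, 48 and 352 at T4. It was 144-fold lower than expected in T2 replicate 3 (95% exact Poisson interval 39.8 to 1190) and at least 51.2-fold lower in T4 replicate 1, with the other 10 libraries between 9.9 and 31.3 CPM. The missing and present libraries were well apart here, which was not so at peak68729. There the counts were 16, 10 and 539 at T1, 384, 331 and 5 at T2, 5, 260 and 2 at T3, and 244, 23 and 3 at T4. Its 2 missing libraries, T3 replicate 3 and T4 replicate 3, continued into T1 replicates 1 and 2, T2 replicate 3 and T3 replicate 1, at 0.21 to 1.36 CPM, and 6 libraries lay between 5.48 and 21.1 CPM.

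The other named peaks with 2 missing libraries also had partly filled libraries. The counts of peak89503 were 93, 255 and 632 at T1, 135, 7 and 216 at T2, 104, 129 and 3 at T3, and 225, 1 and 297 at T4, so that T2 replicate 2 was low beside the missing T3 replicate 3 and T4 replicate 2. Those of peak24167 were 45, 3 and 23 at T1, 314, 182 and 72 at T2, 0, 199 and 74 at T3, and 35, 41 and 139 at T4. Its missing libraries were T1 replicate 2 and T3 replicate 1, and the 10 others spread from 0.735 to 15.2 CPM.

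Of 21 peaks with a median of at least 10 CPM, 12 were missing from 2 or more libraries (57.1%), against 97 of the 601 weaker ones (16.1%). All 12 were missing from libraries of at least 2 time points. This had to hold for any peak missing from more than 3 libraries, and most library pairs span 2 time points. In 8 of the 21 peaks a further library was above 3 counts but below 0.05 of the peak's top level. The same held by expected count: 28.3% of the 99 peaks expected at 50 or more counts and 15.5% of the other 523 were missing from 2 or more libraries. A weak peak can be recognised as missing only in deep libraries, so these shares are not free of depth.

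The strongest peak with several missing libraries was peak63520, at a median of 80.1 CPM. Its counts were 563, 0 and 1943 at T1, 2363, 2061 and 1 at T2, 2812, 0 and 592 at T3, and 927, 126 and 2939 at T4. T1 replicate 2 was at least 570-fold and T3 replicate 2 at least 350-fold lower than expected, and T2 replicate 3 was 1730-fold lower (95% exact Poisson interval 311 to 68400). The 9 other libraries lay between 30 and 120 CPM, with no value in between. Thus T1, T2 and T3 each had 1 nearly empty library, with the other 2 at 47.7 and 62.1 CPM (T1), 104 and 120 CPM (T2) and 118 and 79.2 CPM (T3).

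The peaks missing from most libraries were present in few. At peak33050 the counts were 0, 0 and 1 at T1, 2, 0 and 0 at T2, 2, 0 and 0 at T3, and 164, 42 and 0 at T4. T4 replicates 1 and 2 had 14.2 and 10 CPM, and the 10 other libraries, T4 replicate 3 among them, held 2 counts or fewer. At peak23820 the counts were 0 in all of T1, 226, 0 and 0 at T2, 1, 78 and 120 at T3, and 1, 0 and 0 at T4. Only T2 replicate 1, T3 replicate 2 and T3 replicate 3 held more than 3 counts. The next peak by number, peak23819, had 0, 2 and 1 counts at T1, 177, 0 and 0 at T2, 0, 87 and 111 at T3, and 0 in all of T4, which is the same division of the libraries.

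Each CPM value was divided by the median of the 3 highest libraries of its peak, and values from 0.25 to 0.75 of that level were called intermediate. Over the 6612 values above 3 counts, 44.7% were intermediate, 30.8% were higher, 22.7% lay between 0.05 and 0.25, and 1.69% were below 0.05. The other peaks set beside them were the 91557 above 3 counts in every library with an expected count of at least 20 in some library. In these other peaks the shares were 49.6%, 44.5%, 5.78% and 0.0702%. Over all levels the missing peaks thus had a lower intermediate share and a higher share of low values than other peaks, and the rule favours such peaks since it selects for a low library. The other peaks were in turn chosen to have no library at 3 or fewer counts, so the contrast in low values is partly built in. The intermediate share rests on the reference level: it was 27.7% when values were divided by the median of the libraries above 3 counts. At least 1 intermediate library was found in 617 of the 622 peaks, 101 had every other library at 0.25 or above, and 73 (11.7%) had a further library below 0.05.

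Within classes of level the missing peaks were set beside the same other peaks, so the same limit applies. In the 419 peaks under 2 CPM, 0.923% of the values above 3 counts lay below 0.05 and 26.8% between 0.05 and 0.25, against 0.196% and 18.2% in other peaks of that level. In the 21 peaks at 10 CPM or more, 8.08% lay below 0.05 and 4.55% between 0.05 and 0.25, against 0.0239% and 0.595% in other peaks. In weak peaks 0.05 of the top level is close to the level of 3 counts, which is 0.0958 to 0.714 CPM by library, so values below 0.05 could hardly occur among those above 3 counts and the classes of level cannot be compared in that respect. The intermediate share was 44.3% under 2 CPM, 45.3% from 2 to 5 CPM and 46.5% from 5 to 10 CPM, below the 54.3%, 57.6% and 50.8% of other peaks. At 10 CPM or more it was 46%, above the 38.1% of other peaks.

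**Figure D3:**
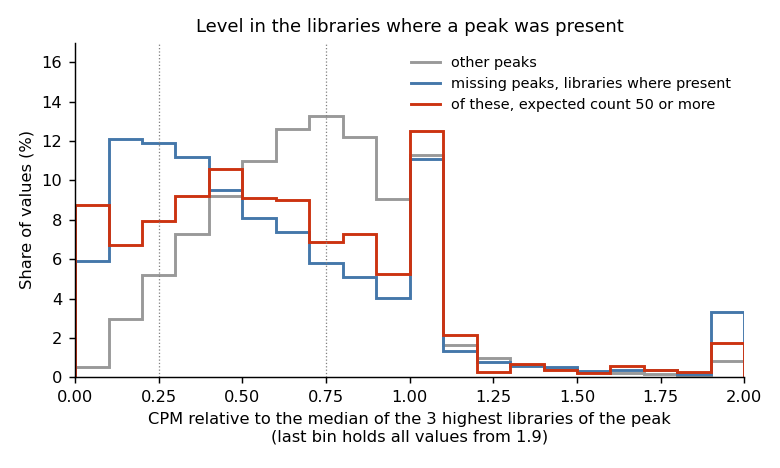
Share of values (vertical axis, %) by CPM relative to the median of the 3 highest libraries of the peak (horizontal axis, bins of 0.1, the last holding everything from 1.9). The blue line is the missing peaks in libraries above 3 counts and the red line those of them expected at 50 or more counts. The grey line is the other peaks, which were above 3 counts in every library. Dotted lines mark 0.25 and 0.75, and 22.7% of the values under the blue line but 5.78% of those under the grey line lie between 0.05 and 0.25.

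Peaks in which only the missing library was low were few. Among the 513 peaks missing from 1 library, the next lowest library had a median of 0.301 of the peak's median level, and it was at 0.5 or above in 61 (11.9%) and under 0.25 in 200 (39%). Peaks above 3 counts in every library had a median of 0.681 for their second lowest library, or 0.566 where they were under 2 CPM. The missing peaks were chosen for a low library and these peaks for having none, so the contrast is partly built in and is a description. By a measure chosen after the values were seen, 26 of the 622 peaks had every other library at 10 times the level of 3 counts or more in their missing libraries, and 7 at 20 times or more. These 26 were 15 of the peaks missing from 1 library (2.92%), 2 of those missing from 2 (3.7%) and 9 of those missing from 3 or more (16.4%). A peak missing from more libraries has fewer others that must reach this level, so these shares cannot be compared directly.

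Missing peaks were spread unevenly over the libraries. T1 replicate 3 lacked 151 of the 622 peaks, T3 replicate 1 lacked 147 and T2 replicate 3 lacked 122, whereas the 9 other libraries lacked 28 to 66 each. These 3 libraries were also the only missing library of 110, 98 and 77 peaks. To set libraries of different depth side by side, each library was asked which peaks it should have shown, namely those for which the other libraries gave an expected count of at least 20, and these were 47631 to 94104 peaks per library. The peaks of this kind with 3 or fewer counts made up 1251 values over the 12 libraries. They include peaks outside the 622, which had a further low library that did not reach the expected 20 counts, so that T1 replicate 3 had 280 of them, T3 replicate 1 had 211 and T2 replicate 3 had 166. As a share of the peaks each should have shown, these were 0.298%, 0.227% and 0.18%. The share was 0.0542% to 0.109% in the 9 others, with the lowest in T1 replicate 1. Counting the 622 peaks alone over the same denominators, the 3 libraries lacked 0.16%, 0.158% and 0.133%, and the 9 others 0.0416% to 0.071%.

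The same 3 libraries had the lowest levels in their weakest peaks. The CPM at the 1st percentile of all peaks was 0.192 in T1 replicate 3, 0.21 in T3 replicate 1 and 0.277 in T2 replicate 3, and 0.292 to 0.952 in the others. Of the other deep libraries, T4 replicate 3 held 25088154 counts and lacked 0.109%, and T2 replicate 1 held 22714461 counts and lacked 0.0835%. The part of depth and of the level of weak peaks in these shares was not tested. Among the peaks expected at 50 or more counts the contrast was smaller, with 23 missing from T1 replicate 3, 24 from T3 replicate 1, 18 from T2 replicate 3, 19 from T4 replicate 3 and 2 to 14 from the 8 others.

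**Figure D4:**
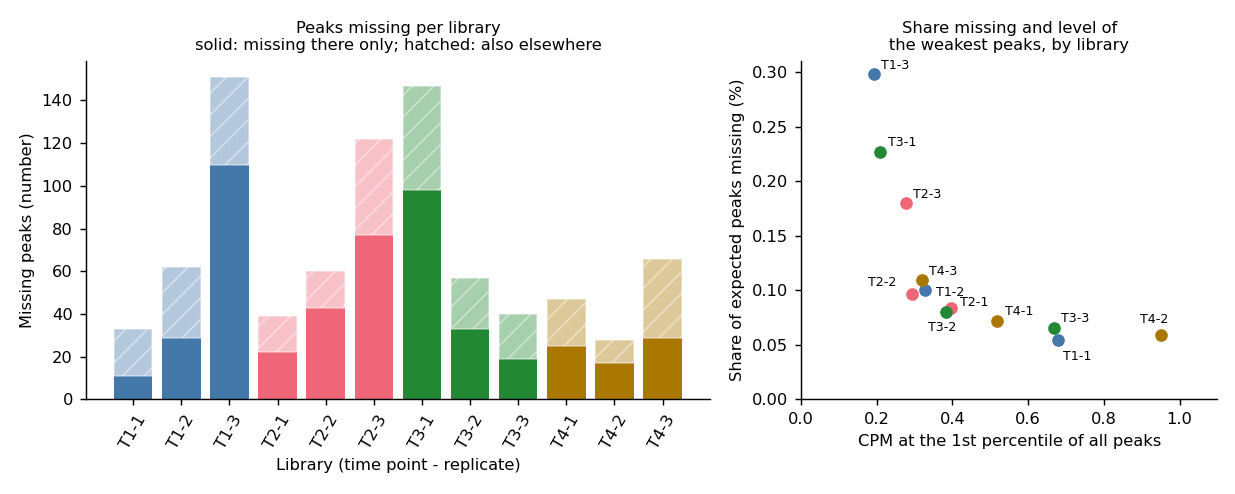
Left: number of peaks missing from each library (vertical axis; horizontal axis, time point and replicate), solid where that library was the only missing one and hatched where others were missing too. Right: share of all peaks with an expected count of at least 20 that were missing, peaks outside the 622 included (vertical axis, %) against the CPM at the 1st percentile of all peaks (horizontal axis), 1 point per library, colours by time point; T1 replicate 3, T3 replicate 1 and T2 replicate 3 are at the upper left with 0.298%, 0.227% and 0.18%.

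Whether peaks went missing at particular time points was then examined. Over all peaks with an expected count of at least 20, inside the 622 or not, the 3 libraries of T1 lacked a mean of 0.151% ± 0.129, and those of T2 lacked 0.12% ± 0.0525 (SD, n = 3 libraries). For T3 the mean was 0.125% ± 0.0894, and for T4 it was 0.0798% ± 0.0258 (SD, n = 3 libraries). All 4 ranges overlapped. Time points accounted for 0.121 of the variance between libraries (two-sided exact permutation test over 369600 arrangements of the 12 libraries, p = 0.822). With the missing values of the 622 peaks alone, an alternative added after the values were seen, they accounted for 0.0928 (exact permutation p = 0.855). The labels call the 3 libraries of a time point biological replicates, and p-values measure the spread between these samples.

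Where a peak was missing from several libraries, these were mostly of different time points. Of the 54 peaks missing from 2 libraries, 7 had both in the same time point. Pairs within a time point are 12 of the 66 library pairs (18.2%) and held 17% of the 507 cases in which a pair of libraries lacked the same peak. Pairs within a time point shared 5 to 14 missing peaks (mean 7.17) and pairs from different time points 2 to 20 (mean 7.8). The pairs sharing 20 were T1 replicate 3 with T3 replicate 1, T2 replicate 3 with T3 replicate 1, and T2 replicate 3 with T4 replicate 3, all from different time points. The 3 libraries that lacked most peaks, T1 replicate 3, T3 replicate 1 and T2 replicate 3, were themselves of different time points. The 18.2% takes no account of how many peaks each library lacked. A peak missing from most libraries adds many of the 507 cases, and its share within time points must lie near 18.2%. The closeness of 17% to 18.2% is thus partly built in. Of the 27 peaks missing from 3 libraries, 1 had them in 1 time point, 12 in 2 and 14 in 3.

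Complete loss at a time point could be seen in only part of the peaks. The rule asks for the expected count in every missing library, so the shallowest library of a time point set the lowest level. It was 1.7 CPM in T1 replicate 1, 1.17 in T2 replicate 2, 2.68 in T3 replicate 3 and 4.76 in T4 replicate 2. Of the 622 peaks, 419 had a median under 2 CPM and 67 reached 5 CPM. The number found is therefore no measure of how rare such loss was. In all, 7 peaks were missing from every library of some time point, which was T1 for 4 peaks, T2 for 1, T3 for 2 and T4 for 5, where a peak may count at several. The single peak missing from all libraries of 1 time point and from no other was peak98942. Its CPM was 0.0263 ± 0.0239 in the T1 libraries and 4.44 ± 0.726 in those of T2 (SD, n = 3). It was then 5.51 ± 1.33 for T3 and 5.85 ± 5.57 for T4 (SD, n = 3). The counts at T3 were 133, 89 and 31, those at T4 were 28, 12 and 308, and no T1 library held more than 1, so that T1 did not overlap with the later time points. The adjacent peak98941 held 88, 182 and 327 counts at T1.

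Each later time point was compared with T1 by the quasi-likelihood test of edgeR on the whole table, and a peak was called where its Benjamini-Hochberg adjusted P was under 0.05 and its log2FC beyond 1 in either direction. Between T2 and T1, 2 of the 512 tested missing peaks were called, where 0.0964% of all 92360 tested peaks were. For peak98942 (edgeR adjusted P = 0.00782), the T1 libraries held 2 counts together and the T2 libraries 272, a ratio of pooled CPM of 143 (95% exact Poisson interval 39.1 to 1180, counting error only). The peak53804 fell, with 23.9 ± 9.26 CPM in the T1 and 0.268 ± 0.426 in the T2 libraries (SD, n = 3; log2FC -6.62, standard error 0.70, edgeR adjusted P = 0.0162). The counts of peak53804 in single libraries were 233, 374 and 1082 at T1, 1, 13 and 0 at T2, 439, 0 and 86 at T3, and 65, 0 and 0 at T4, so that libraries with and without it occurred together at T3 and at T4. Both peaks were selected on these same counts, and peak98942 entered the test only through its later libraries, so the calls describe these peaks and support nothing further. Leaving out a library changed the number called. Without T1 replicate 3 it was 1 (0.00759% of all peaks), without T1 replicate 1 it was 3 (0.00992%), without T1 replicate 2 it was 6 (0.037%), and without T2 replicate 3 it was 17 (1.69%). DESeq2 called 17 (1.65% of all peaks) and the exact test of edgeR 20 (1.63%), and 1 fit of all 12 libraries called 0 (0% of all peaks). That fit gave an unadjusted P under 0.05 for 50 of 621 (8.05%) and for 6.38% of all peaks.

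Between T3 and T1, 1 of 600 tested missing peaks was called, again peak98942 (ratio of pooled CPM 184, 95% exact Poisson interval 50.4 to 1530; edgeR adjusted P = 0.00423), against 0.00428% of all tested peaks. The number was 2 without T1 replicate 1 (0.00546% of all peaks) or T1 replicate 3 (0.00429%), and 3 without T3 replicate 1 (0.0161%) or T3 replicate 3 (0.0197%). It was 3 with DESeq2 (0.56%) and 6 with the exact test (0.52%). The counts tested here also chose the peaks, and peak98942 entered this test only through its T3 libraries. These calls are therefore a description. The missing peak with the next smallest P, peak86299, had 94, 94 and 145 counts at T1, 15, 67 and 74 at T2, 3, 7 and 5 at T3, and 40, 13 and 23 at T4. It was missing from T3 replicate 1 only, its 3 T3 libraries, at 0.126 to 0.669 CPM, lay below the 3 T1 libraries, at 4.4 to 7.97 CPM, and its log2FC of -3.87 (standard error 0.52) did not pass (edgeR adjusted P = 0.106).

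Between T4 and T1, 0 of 612 tested missing peaks were called by edgeR's quasi-likelihood test, and 0% of all tested peaks. An unadjusted P under 0.05 was found for 99 of them (16.2%) and for 12.1% of all peaks, and both DESeq2 (0.323% of all peaks) and edgeR's exact test (0.148%) called 7 of them. Without T4 replicate 3 the number was 59 of 610 (9.67%), where 14.3% of all peaks were called. The tested counts are those that chose the peaks, so these shares describe the set and are no evidence about it. The peak with the second smallest P here, peak99402, had 13, 8 and 5 counts at T1, 9, 87 and 10 at T2, 3, 78 and 2 at T3, and 86, 36 and 154 at T4. All T4 libraries exceeded all T1 libraries, and 1 library each of T2 and T3 was at a similar level (T4 against T1, log2FC 3.79, standard error 0.62, edgeR adjusted P = 0.389).

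The median log2FC of the tested missing peaks against T1 was -0.19 for T2, 0.11 for T3 and 0.92 for T4, where all tested peaks had medians of 0, 0.02 and 0.06. The peaks were chosen by these same counts, with 246 missing values in the T1 and 141 in the T4 libraries. The medians therefore describe the set and cannot show a change with time. The value at T4 was 0.20 without T4 replicate 2, the library in which weak peaks had the highest CPM. It was 0.69 to 1.34 when any other library was left out, and the part of T4 replicate 2 was not tested. At T2 the median ranged from -0.29 to 0.15 and at T3 from -0.16 to 0.52 when each library was left out, so that the sign at T2 and T3 depended on the library. The 3 comparisons share the T1 libraries. In 1 test of any difference among the 4 time points, 0 of 621 missing peaks passed an adjusted P under 0.05 by edgeR's quasi-likelihood test and 0.00211% of all peaks did. An unadjusted P under 0.05 was found for 74 (11.9%) and for 10.7% of all peaks. DESeq2 called 18 (1.63% of all peaks), and edgeR without T4 replicate 3 called 43 (14.5%). Here too the tested counts chose the peaks, so the shares are a description.

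Some missing peaks had adjacent numbers. A missing peak was next by number to another in 55 of 622 cases (8.84%), whereas 1.3% of all peaks had a missing peak next to them. The 55 formed 23 runs of 2 peaks and 3 runs of 3. They gave 29 adjacent pairs, of which 11 (37.9%) were missing from identical libraries, a further 7 shared some of them and 11 shared none. At the level of single values, 100 of 852 missing values (11.7%) had a neighbouring peak missing in the same library, and 0.225% of all 999229 values with an expected count of at least 20 did.

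Shared missing libraries were more frequent in peaks missing from several libraries. A neighbour missing from at least 1 of the same libraries was found for 43 of 622 peaks (6.91%), a share that was 14.6% with 0 counts as the limit for missing. At 3 counts it was found for 16 of the 513 missing from 1 library (3.12%), 6 of the 54 missing from 2 (11.1%) and 21 of the 55 missing from 3 or more (38.2%). By expected count it was 16 of 99 at 50 or more (16.2%) and 27 of 523 below that (5.16%). A peak missing from more libraries can share one more easily, and no test was made of these differences.

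Of the runs missing from identical libraries, 2 held 3 peaks. The peaks peak23812, peak23813 and peak23814 were all missing from T1 replicate 2, T1 replicate 3 and T3 replicate 3. The counts of peak23812 were 65, 0 and 0 at T1, 165, 456 and 545 at T2, 349, 78 and 0 at T3, and 78, 115 and 451 at T4. Those of peak23813 were 36, 0 and 0 at T1, 319, 291 and 207 at T2, 134, 144 and 0 at T3, and 44, 257 and 240 at T4. As the weakest, peak23814 had 14, 2 and 3 counts at T1, 86, 136 and 104 at T2, 85, 35 and 0 at T3, and 15, 62 and 69 at T4. T1 replicate 1 had the lowest CPM of the present libraries in each of them. The next number down, peak23811, had 2, 0 and 0 counts in the same 3 libraries but was too weak to meet the rule.

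The second such run, peak75453 to peak75455, was missing from T2 replicate 1 alone. The peaks had 0, 1 and 0 counts there, where 61.7, 126 and 103 were expected. In peak75454 the 11 other libraries ranged from 1.95 to 8.59 CPM. On either side, T2 replicate 1 had 122 counts in peak75452 and 45 in peak75456, both above the counts of T2 replicate 2 and T2 replicate 3 (56 and 66 counts, 8 and 26 counts). The loss was thus limited to 3 numbers of those 5.

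At peak63520, described above, the next number peak63521 was missing from the same libraries, with 14, 0 and 26 counts at T1, 110, 127 and 0 at T2, 138, 0 and 10 at T3, and 18, 9 and 93 at T4. Around this pair, peak63519 had 451, 453 and 267 and peak63522 had 177, 266 and 190 counts in the 3 libraries concerned. A pair with nearly the same libraries was peak74344 and peak74345, singled out after their values were seen. The counts of peak74344 were 0, 599 and 6 at T1, 279, 347 and 241 at T2, 749, 0 and 0 at T3, and 201, 54 and 224 at T4. Those of peak74345 were 4, 451 and 0 at T1, 335, 301 and 340 at T2, 512, 0 and 0 at T3, and 111, 42 and 248 at T4. T1 replicates 1 and 3 and T3 replicates 2 and 3 were low in both, with at most 6 counts, although the rule counts 3 libraries as missing from each.

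The run peak63108 to peak63110 showed nested patterns. T2 replicate 2, T3 replicate 1 and T4 replicate 3 had 0, 0 and 1 counts in peak63109 and 16, 19 and 0 in peak63110. They also had 1, 1 and 0 in peak63108, which was missing from 8 libraries and had 111, 288, 129 and 21 counts in T1 replicate 1, T1 replicate 3, T2 replicate 1 and T3 replicate 3. In peak63111 the same 3 libraries held 245, 362 and 310 counts.

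The densest stretch, found by scanning windows of 100 numbers after the values were seen, held 10 missing peaks between the numbers 23749 and 23840, where the mean window held 0.656 and the next densest elsewhere held 7. It contains peak23812 to peak23814 and peak23819 with peak23820. Of the 10 peaks, 9 were missing from T1 replicate 2, 5 each from T1 replicate 3 and T3 replicate 1, 3 from T3 replicate 3, 2 each from 6 further libraries and 0 from T2 replicate 1 and T3 replicate 2. At both of its ends lay pairs missing from identical libraries. They were peak23749 and peak23750, with 3 counts each in T1 replicate 2 and 2 and 0 in T3 replicate 1, and peak23839 and peak23840, with 1 count each in T1 replicate 2. In between, peak23753 was missing from T3 replicate 1 with 1 count and had 6 in T1 replicate 2.

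The level of neighbouring peaks that were not themselves in the set was tested in the libraries concerned. For each neighbour, log2(CPM + 1) was taken relative to the neighbour's median over the 12 libraries and to the median of all peaks in that library with an expected count of at least 20. At a distance of 1 number, the mean of the 12 library medians was -0.128 (SD 0.0914), and all 12 libraries were below 0, from -0.352 to -0.0381 (two-sided exact sign-flip permutation test over libraries, p = 0.000488, the smallest it can give, and 0.00244 adjusted over the 5 distances). At 2 numbers it was -0.0563, with 11 of 12 libraries below 0 (exact permutation p = 0.000977, adjusted 0.00244), and at 3 numbers -0.0368 with 10 of 12 (p = 0.0137, adjusted 0.0228). At 4 and 5 numbers, -0.00519 and -0.0392 did not pass (exact permutation p = 0.878 and 0.0557). The difference between distances 1 and 5, a comparison added after the values were seen, was -0.0889 (SD 0.0842) and below 0 in 12 of 12 libraries (exact permutation p = 0.000488).

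**Figure D5:**
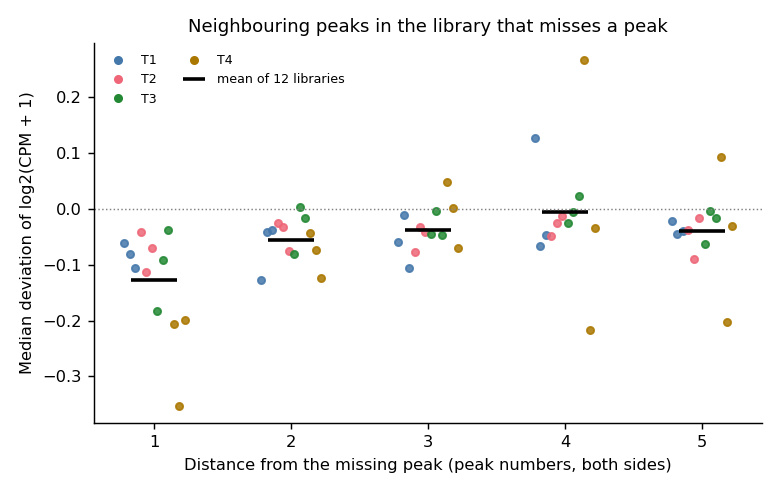
Median deviation of log2(CPM + 1) of neighbouring peaks in the library that misses a peak (vertical axis) by distance in peak numbers on both sides (horizontal axis). Each point is 1 library, coloured by time point, and the black dash is the mean of 12 libraries, which is -0.128 at distance 1 and -0.0392 at distance 5.

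The lower level of neighbours came with a minority of strongly lowered values. At distance 1 there were 1404 values, each the level of a neighbour in a library that missed the peak. A neighbour of a peak missing from several libraries could count several times. Of these values, 61.8% were below 0 and 98 (6.98%) were below -1. Among all values with an expected count of at least 20, 1.3% were below -1. The share below -1 was 4.46% at distance 2, 3.33% at 3, 2.58% at 4 and 2.47% at 5. Beside peaks expected at 50 or more counts, the mean of library medians at distance 1 was -0.218 (12 of 12 libraries below 0, exact permutation p = 0.000488, adjusted over 5 distances 0.00244), with 33 of 243 values (13.6%) below -1. Each library weighed the same in this mean, although T4 replicate 2 gave 2 values and T3 replicate 1 gave 42. At distances 3 and 5, T4 replicate 2 gave a single value each, -1.38 and 0.819. The mean at distances 2 to 5 did not pass after adjustment (exact permutation p = 0.0352 to 0.49, adjusted 0.088 to 0.49). Only neighbours that were themselves among the 622 peaks were left out of these values, and with them the mean at distance 1 was -0.146. Neighbours outside the 622 with 3 or fewer counts in the library concerned, such as peak23811, could remain. The values thus do not stand for present neighbours alone.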

How the data were processed

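ATAC-seq counts of 12 liver libraries were analysed, each assigned to T1, T2, T3 or T4 and to a replicate by its sample name. Per the paper's methods, the authors mapped reads to ICSASG_v2 with Bowtie2 2.3.5.1, filtered out duplicates, mitochondrial reads and reads with several mapping positions, and counted reads with HTSeq 0.11.1 in MACS2 peaks. A peak had to be called in 2 or more replicates of a time point, and the lists of the time points were merged. A region absent from most libraries could thus enter the table only through a time point where 2 libraries had it. Whether reads were shifted for Tn5 is not given in the sources used here. The deposited values are raw counts, whole numbers with no scaling. A deposited table of log2 values was not used.

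CPM were computed from library totals. The expected count was the median CPM of the libraries above 3 counts times the library total. Fold values against 0 counts are lower bounds from a floor of 3 counts per library, and others carry 95% exact Poisson intervals. Time was tested with R 4.3.3 and edgeR 4.0.16 (TMM, peaks above 1 CPM in at least 2 libraries, quasi-likelihood test, each pair of time points on its own 6 libraries). Standard errors of log2FC were derived from the F statistic. The procedures were run on simulated data in which missing values and changes were placed only in stronger peaks. Their spread was simpler than that of the real libraries, so these runs do not show how the procedures perform on the weak peaks. Python 3.11.15, numpy 2.4.6, pandas 2.3.3 and scipy 1.17.1 made the other values.

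Named peaks follow a rule: the 4 strongest missing from 1 library and from 2, those missing from all of a single time point, the 3 missing from most libraries, the 3 longest runs with identical libraries (with ties by level), the 2 with the smallest P in each time test, and 3 on each side of the threshold. Adjacent peaks are named beside them, and peaks outside the rule are marked or belong to a stretch described after its values were seen. Members and lists were chosen with earlier results of these data known. Alternatives were other limits for missing and expected counts, TMM-scaled CPM, DESeq2 1.42.0, edgeR's exact test, no TMM, no filter, a replicate block, 1 fit of all libraries, and leaving out each library.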

Additional observations from a re-analysis of the deposited data

How the results depend on the processing

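The number of missing peaks follows its limits. It was 96 with 0 counts as missing, 4402 with 10 or fewer counts, 99 at 50 expected counts, 1659 at 10, 55 with the lowest other library as reference, 640 with TMM-scaled CPM (589 shared with the 622), and 561 to 658 with each library left out. The between-time share of variance was 0.0634 to 0.273 when each library was left out (exact permutation p = 0.483 to 0.973). Peaks sharing a missing library with a neighbour were 14.6% with 0 counts as missing and 5.94% to 7.4% without each library. Neighbour levels were -0.142 to -0.0902 without each library and kept their direction and side of the threshold in every setting tried. The intermediate share was 27.7% relative to the median of the libraries above 3 counts, and 42.5% to 46% without each library.

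Missing peaks called against T1 at T2 were 17 with DESeq2 (1.65% of all peaks) and 20 with the exact test (1.63%). They were 0 in the fit of all 12 libraries (0%) and 1 to 17 without each library (0.00759% to 1.69%). At T3 they were 3 with DESeq2 (0.56% of all peaks), 6 with the exact test (0.52%) and 1 to 3 without each library (0.00429% to 0.0197%). At T4 they were 7 with DESeq2 (0.323% of all peaks), 7 with the exact test (0.148%) and 0 to 59 without each library (0% to 14.3%). The 59 came without T4 replicate 3 and were 9.67% of the tested missing peaks, below the 14.3% of all peaks. For any time point they were 18 with DESeq2 (1.63% of all peaks) and 0 to 43 without each library (0% to 14.5%). The 43 also came without T4 replicate 3 and were 6.92% of the tested missing peaks, below the 14.5% of all peaks. The cause was not tested. With the replicate number as a block, missing peaks called were 5 (T2, 0.324% of all peaks), 3 (T3, 0.00749%), 37 (T4, 0.321%) and 0 (any time point, 0%). For any time point with this block, 59 of 621 (9.5%) had an unadjusted P under 0.05, against 7.21% of all peaks. Same-numbered libraries showed no steady tendency to deviate together, with correlations of -0.42 to 0.28 between T1 and the later time points. Differently numbered libraries were not set beside them, so whether the numbers pair the samples was not tested. Depth limits which weak peaks can be seen as missing, most of all in T4 replicate 2.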
